A study of Mus musculus with 2 samples.

Results

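The array held 1217 probes named for human long intergenic noncoding RNAs (lincRNAs), out of 59709 distinct probes that were neither controls nor named as negatives. They were chosen by name alone, as every non-control probe whose name starts with humanlincRNA. Each name goes on with a number and a plus or minus sign (humanlincRNA2438+), followed by a suffix that is left off here. There were 608 plus probes and 609 minus probes, which fell into 608 loci with a probe of each sign. The minus probe of humanlincRNA2126 had no plus partner, and it was not well above background on either array, at 6.88 ± 6.92 in left kidney and 8.70 ± 5.59 in right kidney. Each probe was printed in 1 spot per array.

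The samples were kidneys of male mice, with no strain, age, genotype or treatment given in the sources used here. RNA of left kidneys formed 1 mixture and RNA of right kidneys a second, read here as 3 kidneys in each. Each mixture was hybridised to 1 single-colour array after removal of ribosomal RNA and amplification with random primers. With 1 array per side no test was possible, and the error given beside a signal is the scanning software's own estimate for that spot, not a spread between kidneys.

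LincRNAs are long transcripts that come from stretches between protein-coding genes and encode no recognised protein. As a class they tend to be present at lower levels than messenger RNAs, and to be more restricted to particular tissues. Their sequences are conserved less between mammals than those of coding exons, although short conserved stretches are common. Most are transcribed from 1 strand, and some lie beside a gene transcribed in the opposite direction. How human lincRNAs were placed on a mouse array, and what the number and the sign refer to, are not given in the sources used here. The probes carried no position and no gene name, so no sequence or locus is given, and a probe is described only by its name and signal.

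The signal used was the software's processed signal, which is background-subtracted and linear in brightness. Its 75th percentile over the whole array was 436.5 in left kidney and 435.4 in right kidney. The dimmest probe that the software called well above background had a signal of 33.24 in left kidney and 27.23 in right kidney, so the limit was lower on the right array. Spots of the 20 probes named as negatives had median signals of 7.07 and 5.78, close to the software's additive error of 7.0 and 5.63, and values in that range have no order. Of these 1200 spots 6.5% in left kidney and 9.58% in right kidney were called well above background, and 0.74% and 1.11% of 1080 spots without the 2 brightest such probes. Per the file headers both arrays came from 1 scan at different positions, so kidney side and array position cannot be told apart. The tissue label could not be checked, since 0 of 8 kidney marker genes looked up had a probe with a gene name.

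Fewer than 4 in 10 of the human lincRNA probes were well above background with mouse kidney RNA, while the software's looser flag of a positive and significant signal passed 725 of 1217 (left) and 812 (right). On the left array 379 of 1217 were well above background (31.14%, exact 95% interval 28.55 to 33.83), against 60.4% of all probes. On the right array 444 were (36.48%, 33.77 to 39.26), against 65.5% of all probes. On both arrays 361 were (29.66%, 27.11 to 32.32), against 59.2%. Another 18 passed on the left alone (1.48%, background 1.14%) and 83 on the right alone (6.82%, background 6.26%), and 755 (62.04%) passed on neither. The human lincRNA probes thus passed about as rarely as the array's mouse lincRNA probes (30.97% left, 37.92% right) and ultraconserved element probes (30.35%, 35.55%), and all 3 shares had overlapping intervals on each array. Mouse lincRNA exon probes passed more often, in 50.56% (48.88 to 52.24) and 56.26% (54.59 to 57.92), with intervals above those of the human lincRNA probes. Plus and minus probes passed at like rates, 32.07% against 30.21% on the left and 35.69% against 37.27% on the right. These intervals cover counting error only, and binding to RNA other than the named target was not measured.

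**Figure D1:**
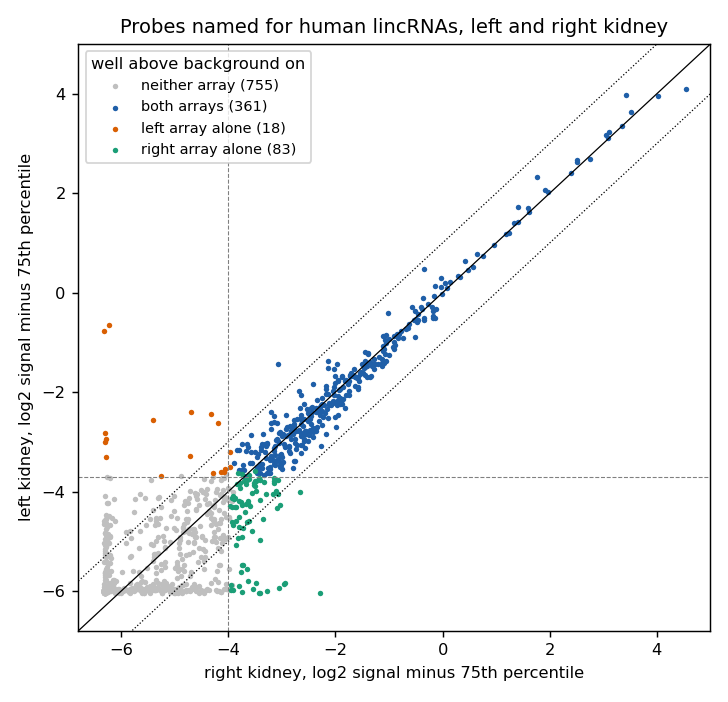
Each point is 1 of the 1217 human lincRNA probes, with its log2 processed signal minus the array's 75th percentile on the right array (horizontal axis) and on the left array (vertical axis); colours give whether it was well above background on both arrays (361), the left alone (18), the right alone (83) or neither (755). The solid line marks equal signals, the dotted lines a 2-fold difference and the dashed lines the dimmest signal well above background, at -3.715 in left kidney and -3.999 in right kidney; the probes above background on both arrays lie along the line of equality and only 1 lies past 2-fold.

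The probes that did give signal were mostly dim. Over all 1217 the median processed signal was 13.38 in left kidney and 15.32 in right kidney. A signal below 10, near the medians of the negative spots, was seen for 557 and 493 probes. Of the array's 59701 probes left after removal of outlier-flagged spots, 13075 (left) and 11472 (right) were that dim. Among the 361 above background on both arrays the medians were 90.94 and 93.76. Of the 1217, 37 (3.04%) reached the array's 75th percentile on the left and 33 (2.71%) on the right, beside 24.66% and 24.67% of all probes. Mouse lincRNA probes reached it in 3.33% on each array, ultraconserved element probes in 6.24% and 5.72%, and mouse lincRNA exon probes in 12.44% and 12.67%. A signal of 1000 or more was seen for 21 human lincRNA probes on each array, beside 10651 (left) and 10510 (right) of the 59701. The bright end of the set thus held few probes. Brightness also depends on how well each probe binds, so the order given next is an order of spots, not of transcript amounts.

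Of the 10 brightest probes, humanlincRNA2438+ led with 7429.76 ± 743.01 in left kidney and 10140.75 ± 1014.09 in right kidney. It was followed by humanlincRNA2163-, with 6806.87 ± 680.72 and 7114.78 ± 711.5. Then came humanlincRNA1513-, with 6873.1 ± 687.34 and 4683.59 ± 468.39. Of the 10, humanlincRNA2438+ and humanlincRNA1513- had the widest differences between the arrays, in opposite directions. On the scaled log2 scale, left minus right was -0.45 for humanlincRNA2438+ and 0.55 for humanlincRNA1513-, each with a software error of 0.20. The next were humanlincRNA0318- (5434.53 ± 543.5 and 4974.29 ± 497.46), humanlincRNA2296+ (4436.42 ± 443.69 and 4418.94 ± 441.93) and humanlincRNA2159- (4104.07 ± 410.47 and 3753.08 ± 375.35). Signals of 3928.6 ± 392.92 and 3606.29 ± 360.67 were measured for humanlincRNA2199+, and of 3748.25 ± 374.9 and 3700.22 ± 370.07 for humanlincRNA2330+. The last of the 10 were humanlincRNA1773+ (2826.59 ± 282.74 and 2926.22 ± 292.67) and humanlincRNA0065- (2777.38 ± 277.82 and 2477.04 ± 247.76). Apart from humanlincRNA2438+ and humanlincRNA1513-, the 10 differed between arrays by no more than their software error.

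Which probe of a locus passed the background limit is called its strand state here. Passing also depends on each probe's affinity, and what the signs refer to is not given, so strand use itself was not measured. Levels of a plus and a minus probe were not set against each other, because each has its own affinity. On the left array both probes passed in 70 of 608 loci (11.51%), the plus probe only in 125 (20.56%), the minus probe only in 114 (18.75%) and neither in 299 (49.18%, 45.13 to 53.23). On the right array the counts were 92 (15.13%), 125 (20.56%), 135 (22.2%) and 256 (42.11%, 38.15 to 46.14). At this limit, loci with 1 passing probe outnumbered those with both, with plus and minus in like numbers, but neither held at every limit. With the looser flag of a positive and significant signal, the right array had 276 loci with both probes, 122 with the plus probe only and 137 with the minus probe only, and the left array 225, 130 and 145. With a limit 4 times the dimmest passing signal, plus only and minus only numbered 70 and 44 on the left array and 80 and 54 on the right. At least 1 probe passed in 50.82% of loci in left kidney and 57.89% in right kidney.

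**Figure D2:**
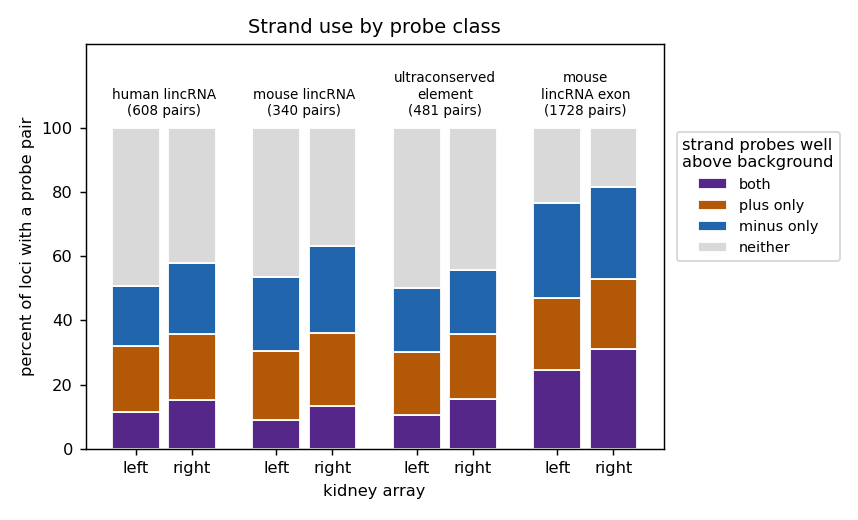
Stacked bars give the percent of loci on each array in which both probes, the plus probe only, the minus probe only or neither was well above background, for human lincRNA, mouse lincRNA, ultraconserved element and mouse lincRNA exon pairs. The human lincRNA bars (both 11.51% left and 15.13% right) lie close to those of the ultraconserved elements (10.6% and 15.38%), while the exon bars have more loci with both (24.59% and 31.19%).

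The minus probe passed somewhat more often where the plus probe of the locus passed too. On the left it passed in 70 of 195 such loci (35.9%, 29.17 to 43.06), against 114 of 413 loci where the plus probe did not (27.6%, 23.34 to 32.19). On the right the shares were 42.4% of 217 (35.74 to 49.27) and 34.53% of 391 (29.82 to 39.47). The intervals overlapped on each array, and both arrays read the same probes, so they do not count as separate evidence. Ultraconserved element pairs had the same direction (35.17% against 28.57% on the left, 43.02% against 31.07% on the right), and mouse lincRNA pairs the opposite one (29.13% against 33.33%, 36.59% against 42.4%), as had mouse lincRNA exon pairs (52.47% against 55.88%, 58.91% against 60.39%). The difference between these classes was not tested.

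**Figure D3:**
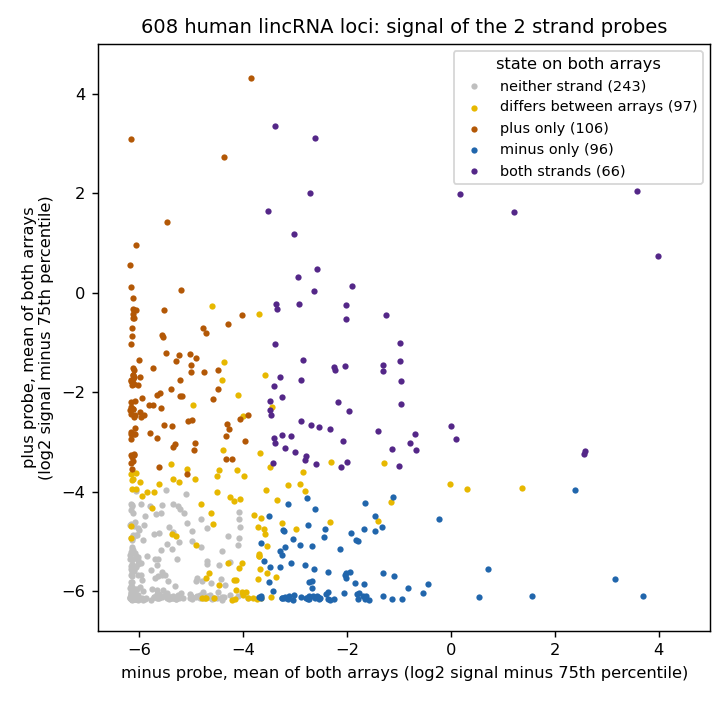
Each point is 1 of the 608 loci, with the mean scaled log2 signal over both arrays of its plus probe (vertical axis) against that of its minus probe (horizontal axis), coloured by which probes were well above background on both arrays or by a state that differed between arrays. Loci with signal from 1 probe lie along the 2 edges of the plot, with the partner near background, and the 66 with both probes above background on both arrays fill the upper right; across all 608 the Spearman correlation was 0.10, given as a description.

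The strand state was mostly the same on both arrays. With the looser flag of a positive and significant signal it was the same in 403 of 608 loci, and with the other limits tried in 533 to 572. At the well above background limit, 511 of 608 loci (84.05%, 80.89 to 86.87) had the same state on the left and right arrays. Beside this stood 82.94% of mouse lincRNA, 85.24% of ultraconserved element and 83.62% of exon pairs. The 511 were 66 loci with both probes (10.86% of all), 106 with the plus probe only, 96 with the minus probe only and 243 with neither (39.97%). The other 97 were among the 365 loci in which a probe passed on at least 1 array. In 79 of these 97 loci more probes passed on the right array, and in 17 fewer did. In 1 the minus probe alone passed on the left array and the plus probe alone on the right. That 1 locus, humanlincRNA1948, named after its values were seen, lay at the limit: its plus probe had 33.01 ± 8.31 in left kidney and 40.71 ± 6.89 in right kidney, and its minus probe 33.78 ± 7.47 and 11.42 ± 5.6. Both left values lay within 1 software error of the left limit of 33.24, and the minus probe passed there while the plus probe did not. In 3 loci both probes passed on the right and neither on the left. They were humanlincRNA0951, humanlincRNA1758 and humanlincRNA2403, chosen after their values were seen. For humanlincRNA1758 the values, left first, were 13.83 ± 7.61 against 41.03 ± 7.14 for the plus probe, and 6.64 ± 6.66 against 88.54 ± 10.42 for the minus probe.

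In 202 loci (33.22%) 1 probe was well above background on both arrays and its partner on neither. The brighter probe of these had a median signal of 90.27 in left kidney and 96.91 in right kidney, and the partner 7.07 and 5.9, which are near the medians of the negative spots. The partner was below 10 on both arrays in 108 of the 202, and in 92 it did not pass the looser flag on either array. In 13 loci the brighter probe reached the 75th percentile on both arrays, 7 times as the plus probe and 6 times as the minus probe.

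The clearest of these loci combined a bright probe with a partner at the floor. For humanlincRNA1513 the minus probe had the values given above and the plus probe 7.06 ± 7.08 in left kidney and 5.68 ± 5.69 in right kidney. For humanlincRNA2330 the plus probe was bright and the minus probe had 6.71 ± 6.74 and 5.56 ± 5.58. For humanlincRNA2159 the minus probe was bright and the plus probe had 11.38 ± 7.22 and 5.71 ± 5.72. In these 3 loci the partner's signal was no larger than its software error, except for humanlincRNA2159 on the left, where it was above 1 and below 2 such errors. The partner of humanlincRNA2438+ was less dim, at 34.77 ± 7.89 and 26.5 ± 6.43, as were those of humanlincRNA1773+ (24.73 ± 7.54 and 18.06 ± 6.01) and humanlincRNA1364- (28.4 ± 7.28 and 27.26 ± 6.14). All 3 lay more than 2 software errors above 0 without being called well above background.

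The other 4 of the 10 brightest were humanlincRNA1398, humanlincRNA2242, humanlincRNA0806 and humanlincRNA2345. The minus probe of humanlincRNA1398 had 1431.75 ± 143.36 in left kidney and 1161.18 ± 116.26 in right kidney, beside a plus probe at 7.01 ± 7.03 and 5.71 ± 5.73. The plus probe of humanlincRNA2242 had 1167.14 ± 116.93 and 1154.84 ± 115.62, and its minus probe 7.02 ± 7.04 and 13.86 ± 5.73. The plus probe of humanlincRNA0806 had 844.76 ± 84.76 and 851.77 ± 85.37, and its minus probe 7.26 ± 7.28 and 5.88 ± 5.9. For humanlincRNA2345 the minus probe had 746.06 ± 74.93 and 679.71 ± 68.2, and the plus probe 14.53 ± 7.47 and 5.87 ± 5.81. In each of the 10 loci the same probe was the bright one on both arrays, which follows from how they were chosen.

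**Figure D4:**
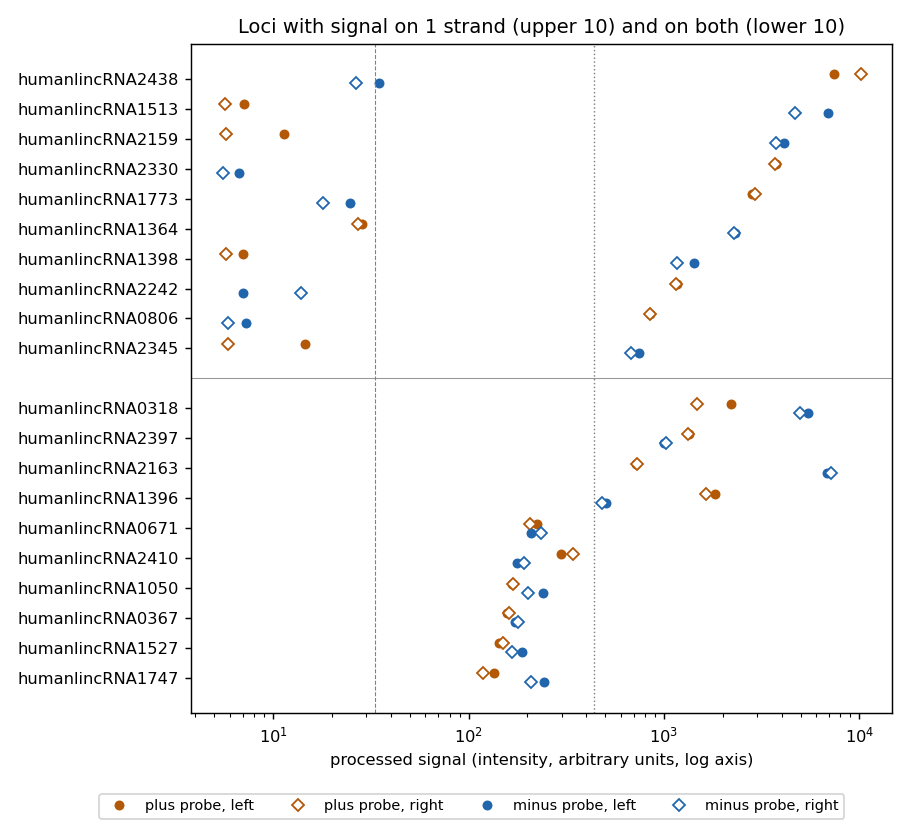
Processed signal on a log axis of the 10 brightest loci with 1 probe above background (upper rows) and the 10 loci with both probes above background whose dimmer probe was brightest (lower rows); colours give the plus and the minus probe, filled points the left array and open points the right. For the left array, the dashed line is the dimmest signal well above background (33.24) and the dotted line the 75th percentile (436.5); partners in the upper rows sit at or below the dashed line except humanlincRNA2438-, at 34.77 on the left.

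In 66 loci both probes were well above background on both arrays. Their plus probes had median signals of 105.54 in left kidney and 106.03 in right kidney, and their minus probes 82.88 and 77.26. In 4 of them both probes reached the 75th percentile on both arrays, and in 10 a single probe did. For humanlincRNA0318 the plus probe had 2196.33 ± 219.74 in left kidney and 1467.53 ± 146.85 in right kidney, beside the bright minus probe given above. For humanlincRNA2397 the plus probe had 1349.39 ± 135.1 and 1323.17 ± 132.43, and the minus probe 1006.16 ± 100.85 and 1021.38 ± 102.28. For humanlincRNA2163 the plus probe had 722.56 ± 72.59 and 730.62 ± 73.27, beside its minus probe given above. For humanlincRNA1396 the plus probe had 1825.85 ± 182.72 and 1645.59 ± 164.65, and the minus probe 504.02 ± 50.92 and 480.1 ± 48.37. These 4 loci therefore gave strong signal to probes of both signs in each kidney mixture.

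The other 6 of the 10 loci with the brightest dimmer probe were fainter. They were humanlincRNA0671, humanlincRNA2410, humanlincRNA1050, humanlincRNA0367, humanlincRNA1527 and humanlincRNA1747. Their 24 signals lay between 119.22 ± 13.13, for the plus probe of humanlincRNA1747 on the right, and 344.26 ± 34.92, for the plus probe of humanlincRNA2410 on the right. Some of the brightest probes belonged to loci whose second probe, named here after its values were seen, was above background but dim. Of these, humanlincRNA2296- had 44.24 ± 8.34 and 39.26 ± 6.9, humanlincRNA0065+ had 52.96 ± 8.56 and 43.65 ± 7.04, and humanlincRNA2199- had 64.64 ± 9.51 and 78.28 ± 9.61. Across the 66 loci the plus and the minus probe differed between left and right in the same direction in 31, with a Pearson correlation of 0.039 across loci and a Spearman correlation of 0.026, given as a description.

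Most human lincRNA probes above background had like signals in left and right kidney. Over the 361 probes the median of left minus right, on the scaled log2 scale, was -0.04 (95% interval from order statistics -0.066 to -0.020, over probes and not kidneys), against 0.01 over all probes, and 155 were higher in left kidney and 206 in right kidney. This small shift had no stable direction: it was 0.0081 when arrays were scaled to their medians and 0.0042 after cyclic loess. Plus and minus probes had the same median, -0.04 over 185 and -0.04 over 176. Of the 361, 246 (68.1%) lay within 1.2-fold of each other, against 73.3% of all probes. The SD of the difference was 0.29, beside 0.31 over all probes, and the Pearson correlation across these probes was 0.982 (Spearman 0.952), beside 0.994 and 0.988 over all 35367, which spread over a wider range of brightness and share the same 2 arrays.

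**Figure D5:**
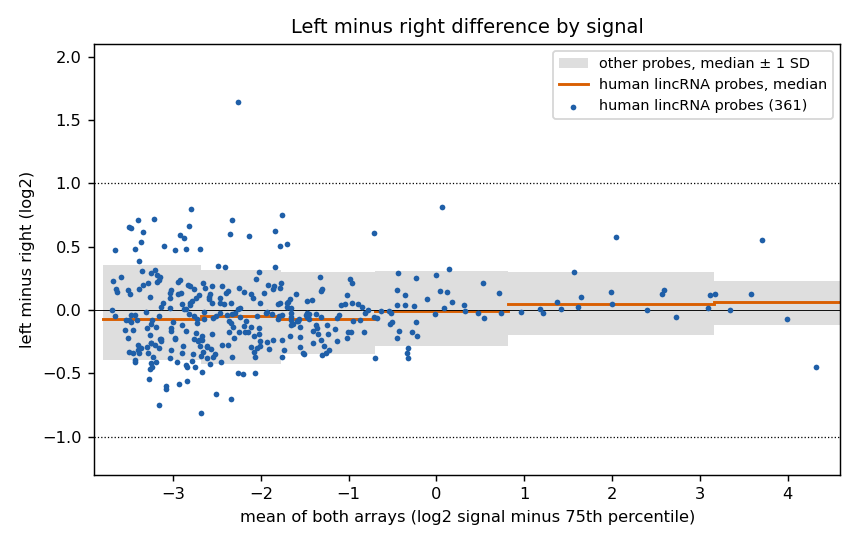
Left minus right log2 difference of each of the 361 human lincRNA probes above background on both arrays against its mean scaled log2 signal; grey gives the median ± 1 SD of all other probes in 6 brightness ranges and orange the median of the human lincRNA probes. The points centre near 0 with medians from -0.069 to 0.063, and humanlincRNA2039- at 1.64 is the only point past 1.

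Within ranges of equal brightness, the human lincRNA probes spread no wider than other probes in 5 of 6 ranges. In the dimmest range their SD was 0.332 over 127 probes, against 0.377 over 5768 others, and in the next 0.327 over 101 against 0.369. In the fifth range it was 0.152 over 17 probes against 0.247. In the brightest range it was 0.325 over 6 probes against 0.173, and that range held both humanlincRNA2438+ and humanlincRNA1513-. Spot error at these brightnesses was measured only on other probes, those printed many times. Negative-named probe 009, with 57 spots and medians of 36.59 and 40.82, had an SD of 0.459 between paired spots of the 2 arrays, a control probe with 35 spots and medians of 275.61 and 276.66 had 0.152, and genes of 1387 and above had 0.039 to 0.112. The differences of humanlincRNA2438+ and humanlincRNA1513-, from 1 spot each, were wider than these SDs of bright genes. Those SDs are spreads around each gene's own mean difference, and these means ran from -0.124 to 0.262. Whether spot error accounts for the differences of the 2 probes was not tested. Negative-named probe 020, also with 57 spots, had medians of 38.99 and 43.39 and a wider SD of 0.499. The other dim probes with many spots had smaller SDs than probes 009 and 020. Theirs ran from 0.364 at medians of 47.38 and 42.34 down to 0.246 at 61.22 and 60.4. Spread between kidneys was not measured.

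Few human lincRNA probes differed between the arrays by 2-fold or more. The count was 1 higher in left kidney and 0 in right kidney, or 0.277%, against 0.537% and 0.543% of all probes and 1.08% either way. That probe was humanlincRNA2039-, with 161.08 ± 17.57 in left kidney and 51.5 ± 7.62 in right kidney, a 3.12-fold difference (log2 1.64, software error 0.27), and it was also the only one past 3-fold (background 0.124% higher left and 0.15% higher right). Its plus partner had 153.48 ± 16.86 and 157.51 ± 16.72, so only 1 probe of the locus differed. The probe lay at the edge of the array, and the 6 nearest tested probes had a median difference of 0.77, while the 18 nearest had 0.07. With another background correction, normexp, its difference was 0.77, below 2-fold. The part of its position on the array in this difference was not tested.

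At 1.5-fold, 15 probes were higher on the left (4.16%) and 6 on the right (1.66%), against 2.47% and 2.64% of all probes, so the total of 5.82% stood near the background of 5.11%. The split moved with the processing. It was 20 and 4 with median scaling or quantile normalization, 22 and 3 with cyclic loess, 2 and 0 with normexp or with a stricter background limit, and 7 and 6 when each probe's neighbours on the array were subtracted. By another measure, 15 probes were higher in left kidney and 6 in right kidney by more than 2 software errors (5.82%, background 7.82% either way, 4.08% left and 3.73% right), and 14 of these 21 were also 1.5-fold apart.

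Among probes higher on the left that kept their sign under normexp and quantile normalization, humanlincRNA0635+ followed humanlincRNA2039- and lay just under 2-fold. It had 602.86 ± 60.66 in left kidney and 342.31 ± 34.68 in right kidney, a log2 difference of 0.81 that was 0.70 with normexp, and its minus partner was not well above background on either array. The next were humanlincRNA0373- with 82.97 ± 10.64 and 47.51 ± 7.29 (0.80), humanlincRNA1172+ with 167.28 ± 18.08 and 99.4 ± 11.38 (0.75) and humanlincRNA0120- with 60.06 ± 8.97 and 36.49 ± 6.59 (0.72). With normexp these 3 differences were 0.42, 0.46 and 0.20. In these 4 the difference before normexp was over 2 software errors, and only humanlincRNA0635+ was at or above the 75th percentile on an array.

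By the same rule, the probes with the widest differences toward the right were all dim. The largest was humanlincRNA1174+, just under 2-fold, with 51.49 ± 8.67 in left kidney and 90.06 ± 10.54 in right kidney (log2 difference -0.81). It was followed by humanlincRNA1003+ with 37.63 ± 8.06 and 63.06 ± 8.38 (-0.75), and humanlincRNA2262+ with 67.35 ± 9.74 and 109.43 ± 12.34 (-0.70). Then came humanlincRNA1596+ with 60.92 ± 9.11 and 96.05 ± 11.11 (-0.66), and humanlincRNA2091- with 41.62 ± 9.02 and 64.03 ± 8.72 (-0.62). With normexp these 5 differences lay between -0.38 and -0.19, and the last was under 2 software errors.

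Probes above background on 1 array only give a bound rather than a fold. The bound sets the scaled signal on the bright array against the higher of the dim probe's own and the dimmest well above background on the dim array. All 18 left-only probes had such a bound above 1, and for 8 it was at least 2-fold (0.657% of the 1217, background 0.298%). Left signals of the 18 ran from 33.78 to 277.24 with a median of 51.06, and right signals from 5.46 to 27.71. The widest were humanlincRNA2212+, with 277.24 ± 28.66 in left kidney and 5.78 ± 5.8 in right kidney, a bound of at least 10.2-fold, and humanlincRNA2404+, with 255.08 ± 26.44 and 5.46 ± 5.47, a bound of at least 9.34-fold. These were the only 2 human lincRNA probes with a bound of 9-fold or more (0.164%, background 0.0302%). That mark lies just under the lower of the 2 bounds, so the difference from background depends on where it was set. The right signals of these 2 probes lay near the median of the negative spots. With normexp, whose offset shrinks differences of dim spots by construction, their log2 differences were 2.23 and 2.25. Their minus partners were not well above background on either array. The 6 nearest tested probes had median left minus right differences of 0.376 for humanlincRNA2212+, in column 4 of the array, and 0.292 for humanlincRNA2404+. The 18 nearest had 0.094 and -0.026. The part of array position in these differences was not tested. The third, humanlincRNA0002-, had 82.4 ± 10.94 and 16.73 ± 6.03, at least 3.02-fold higher on the left.

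The 83 right-only probes were more numerous and closer to the limit. Of them 32 were plus and 51 minus probes, their right signals ran from 27.78 to 88.54 with a median of 35.19, and their left signals had a median of 22.75. A bound above 1 could be given for 50, and it was at least 2-fold for 2 (0.164%, background 0.221%) and at least 9-fold for 0 (background 0.0184%). The widest was humanlincRNA1758- with the values given above, at least 2.67-fold higher on the right. It was followed by humanlincRNA1385-, with 26.93 ± 7.47 in left kidney and 68.59 ± 8.78 in right kidney (at least 2.07-fold), and humanlincRNA1347-, with 7.66 ± 7.18 and 56.66 ± 8.07 (at least 1.71-fold). The negative-named probes 009 and 020 passed on the right alone in 20 and 15 of 57 spots each, and on the left alone in 1 and 2. Their medians of 36.59 and 38.99 on the left and 40.82 and 43.39 on the right were above those of the right-only probes. Right-only human lincRNA probes outnumbered left-only ones at each limit tried, by a margin that varied: the counts of 18 and 83 became 70 and 157 with the positive and significant flag, 7 and 29 with the limit of 4 times the dimmest passing signal, 31 and 48 with 1 common limit on both arrays, and 28 and 30 with the 95th percentile of each array's negative spots.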

How the data were processed

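Probe signals came from 2 Agilent scanner files, 1 array per side. Per the file headers and the submitters' processing notes, Agilent Feature Extraction 11.0.1.1 made the deposited processed intensity by subtracting background and detrending each array by itself, so the arrays were not yet scaled to each other. The authors' deposited series table equals this intensity for all 1217 probes (relative tolerance 1e-05). From these intensities, log2 signal minus each array's 75th percentile over non-control probes was computed, leaving out outlier-flagged spots (0 among the 1217). Detection was the software's flag for a signal well above background. A 2-fold difference means an absolute log2 difference of at least 1. The software error of a difference combines both spots' errors.

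Named were the 10 brightest probes, the 10 leading loci with 1 and with both probes above background, the 5 widest differences per direction that kept their sign under normexp and quantile normalization, up to 3 one-sided probes per direction, and probes next to 2-fold. Members, rule and classes were chosen with earlier results of these data known. Shares have exact (Clopper-Pearson) 95% intervals.

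Alternatives were other scalings (median, quantile, cyclic loess), normexp (on median spot signal and median local background, with an offset of 50 added before log2), other background limits, other fold limits and correction by the 18 nearest tested probes. A common limit was added after seeing the data. Normalizations were run with limma 3.58.1 in R 4.3.3, and everything else in Python 3.11.15 with pandas 2.3.3, numpy 2.4.6, matplotlib 3.10.9 and scipy 1.17.1. The counts and differences were tested on simulated data.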

Additional observations from a re-analysis of the deposited data

How the results depend on the processing

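No paired analysis was possible because each side had 1 array, and for the same reason no replicate could be left out. Signal over background also limits what can be read, since 755 of the 1217 probes were well above background on neither array. With the looser flag of a positive and significant signal, 725 (left), 812 (right) and 655 (both arrays) probes passed, both probes passed in 225 (left) and 276 (right) loci and neither in 108 and 73. With a limit 4 times the dimmest passing signal, 136, 158 and 129 probes passed, and loci with both, plus only, minus only and neither numbered 11, 70, 44 and 483 on the left and 12, 80, 54 and 462 on the right. These counts move by construction of the limit, and the shares of all probes passing at these limits were not counted.

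The median left minus right difference was 0.0081 with median scaling, -0.0149 with quantile normalization, 0.0042 with cyclic loess, -0.0023 with normexp, 0.1189 with no background filter and -0.0679 after position correction. The 2-fold count of 1 became 0 with normexp or the stricter limit, 150 with no filter (64 higher left, 86 higher right) and 21 at 1.5-fold. The SD of 0.29 became 0.1611 with normexp, whose offset shrinks dim differences by construction, and 0.7343 with no filter. The correlation of 0.982 became 0.9897 with normexp, 0.9909 with the stricter limit and 0.9316 with no filter. Other causes were not tested. Of 43 named probes above background on both arrays, 5 to 8 changed sign under another scaling, normexp or position correction, and 0 with the authors' unscaled table. The 5 widest differences per direction among them were chosen to keep their sign under normexp and quantile normalization, so for these 2 settings that part was fixed in advance. Over all 361 tested probes, 30 to 55 changed sign under the same settings, and 0 with the unscaled table.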
